A study of Mus musculus with 6 samples.

Results

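Genes of glycolysis and of the response to low oxygen were examined in cultured cancer-associated fibroblasts (CAFs). Of 34 listed genes, matched by symbol, 33 reached a mean of at least 1 CPM (normalised read count, scaled to library size by TMM) and were taken as members, out of 55401 genes in the table and 13590 tested. Members were 15 glycolytic enzymes, the glucose transporter Slc2a1, 2 regulators of flux (Pfkfb3 and Pfkfb4), 4 genes of pyruvate and lactate handling (Ldha, Ldhb, Pdk1 and Slc16a3), the 2 HIF alpha subunits Hif1a and Epas1, and 9 targets of HIF without a glycolytic role. Car9, a carbonic anhydrase that many hypoxic cells switch on, lay under the minimum at a mean of 0.568 CPM. The lowest member above it was Ankrd37, at 2.78 CPM. RNA-seq covered 6 libraries. The 3 WT libraries came from CAFs of wild-type hosts and the 3 Thbs2KO libraries from CAFs of hosts without functional Thbs2, the gene of the secreted matrix glycoprotein thrombospondin-2. In both groups the CAFs were taken from tumours that had formed after mouse tumour organoids were placed in the rectum, and were then grown in serum-containing medium on fibronectin, with no treatment named. The labels name neither the allele, nor the cell types that lost it, nor an oxygen level. They are also silent on whether a replicate is its own mouse or only its own dish, and the p-values therefore cover the spread among these libraries, which may be technical.

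Glycolysis turns glucose into pyruvate. Hexokinases and phosphofructokinases spend ATP in the preparatory phase, and the enzymes from Gapdh to Pkm return it in the payoff phase, after which lactate dehydrogenase regenerates NAD+ and lactate leaves through monocarboxylate transporters. The HIF alpha proteins are made constantly and, when oxygen is present, are hydroxylated by prolyl hydroxylases such as Egln1 and then degraded. When oxygen is low they persist, bind hypoxia response elements near their targets, and raise both glycolytic genes and genes of mitophagy, oxygen sensing, chromatin and protein folding. HIF activity is mostly set at the protein level, so transcript levels of Hif1a and Epas1 do not measure it. CAFs are often described as glycolytic cells that pass lactate to tumour cells.

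The core of the hypoxia response element was looked for as ACGTG or GCGTG on either strand in the 250 bases before each RefSeq transcription start (build GRCm38.p6). A CACGTG palindrome holds ACGTG on both strands and counts as 2 matches. Entries were present for 30 of the 34 listed genes. Bnip3l, Epas1, Ero1l and Ndrg1 had none. Of 46 promoters of 29 members, 35 held the core (76.1%), against 38.6% of all 32851 promoters of the same length. Some windows of the same gene overlap, so a match can be counted more than once. By gene, 26 of 29 members held the core in any window, against 11226 of 27025 genes. The core contains the dinucleotide CG, and members' windows held a median of 14 CG against 6 over all promoters. Its part in the higher share was not tested. By role, 18 of 25 promoters of glycolytic enzymes and 7 of 10 of HIF targets held it. A match describes letters in a window and is not a binding site. The windows printed are those of the glucose transporter, of the regulator with the lowest Thbs2KO to WT ratio, of lactate dehydrogenase A, of the enolase pair, whose log2 fold changes had opposite signs, and of a HIF target with many matches. Capitals mark the core on either strand. Where several starts were listed, the window of the start listed at the top of the table is shown.
Slc2a1 (chr4:119108495-119108744, plus strand): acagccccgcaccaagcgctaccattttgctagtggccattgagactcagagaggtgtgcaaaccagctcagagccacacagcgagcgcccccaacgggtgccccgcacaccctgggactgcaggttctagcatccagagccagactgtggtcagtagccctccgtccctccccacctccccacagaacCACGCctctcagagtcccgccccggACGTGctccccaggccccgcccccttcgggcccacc
Pfkfb4 (chr9:108991652-108991901, plus strand): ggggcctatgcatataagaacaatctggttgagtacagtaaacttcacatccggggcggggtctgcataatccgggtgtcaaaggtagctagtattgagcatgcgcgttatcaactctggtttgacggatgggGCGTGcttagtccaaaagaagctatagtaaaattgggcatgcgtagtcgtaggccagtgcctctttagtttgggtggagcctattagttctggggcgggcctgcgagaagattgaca
Ldha (chr7:46845554-46845803, plus strand): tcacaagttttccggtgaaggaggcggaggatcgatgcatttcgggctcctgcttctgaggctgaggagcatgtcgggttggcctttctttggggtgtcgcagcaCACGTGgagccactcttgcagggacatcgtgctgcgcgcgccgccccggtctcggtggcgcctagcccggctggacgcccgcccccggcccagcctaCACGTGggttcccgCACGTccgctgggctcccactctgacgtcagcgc
Eno1 (chr4:150236458-150236707, plus strand): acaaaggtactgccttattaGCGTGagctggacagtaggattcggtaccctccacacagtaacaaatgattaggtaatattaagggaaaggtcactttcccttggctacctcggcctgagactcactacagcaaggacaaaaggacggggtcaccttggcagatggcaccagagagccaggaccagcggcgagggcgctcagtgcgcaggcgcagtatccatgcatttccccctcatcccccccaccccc
Eno2 (chr6:124769674-124769923, minus strand): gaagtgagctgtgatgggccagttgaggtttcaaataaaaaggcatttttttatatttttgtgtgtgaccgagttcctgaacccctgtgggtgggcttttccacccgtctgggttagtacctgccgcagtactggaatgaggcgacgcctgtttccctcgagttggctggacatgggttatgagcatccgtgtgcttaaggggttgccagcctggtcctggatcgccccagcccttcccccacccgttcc
Bnip3 (chr7:138909507-138909756, minus strand): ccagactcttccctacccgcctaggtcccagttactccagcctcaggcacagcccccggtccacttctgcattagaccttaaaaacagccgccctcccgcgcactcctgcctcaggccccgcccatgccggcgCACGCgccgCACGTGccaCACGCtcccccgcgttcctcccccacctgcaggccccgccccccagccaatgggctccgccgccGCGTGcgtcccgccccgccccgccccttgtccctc
The Eno2 window held 0 matches, those of Eno1 and Pfkfb4 held 1 each, that of Slc2a1 held 2 and those of Ldha and Bnip3 held 5 each. The Eno1 windows not shown held 2 matches each, and the Ldha window not shown held 1.

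Totals ran from 19649066 to 24417464 expected counts per library, and TMM factors from 0.969 to 1.04. Thbs2 itself measured 2327, 4166 and 3705 CPM in WT and 538.2, 424.7 and 412 CPM in Thbs2KO, a log2 fold change of -2.89 (edgeR, Benjamini-Hochberg adjusted p = 0.00521). The fibroblast identity of the cells was checked with 10 markers, all above 1 CPM, which summed to between 30660 and 33950 CPM (WT) and between 30120 and 41080 CPM (Thbs2KO). Summed epithelial markers (5 of 10 above 1 CPM) were 24.3 to 33.8 (WT) and 12.3 to 17.9 CPM (Thbs2KO). WT libraries held 9.858 to 14.55 CPM of Krt19, and Thbs2KO libraries 3.569 to 6.215 CPM. Krt20 ran from 1.378 to 3.227 CPM in WT and from 0.1467 to 0.4404 CPM in Thbs2KO. Both were lower in every Thbs2KO library, and neither passed edgeR's adjusted threshold of 0.05. For Krt8, Krt18 and Lgr5, the other markers above 1 CPM, the groups overlapped. Cdx2 was at 0 in all but WT replicate 3. These epithelial genes were named with their values in view. The part of epithelial markers in the members' levels was not tested. Myeloid markers (3 of 7) summed to 9.0 to 19.5 and 8.17 to 13.0 CPM, and 5 of 7 lymphocyte markers were at 0. Endothelial markers (2 of 6) summed to 11.7 to 31.9 and 31.4 to 50.5 CPM, with Pecam1 and Cdh5 under 1 CPM in every library. The 2 with a mean above 1 CPM were Kdr and Tek. Kdr measured 2.497, 26.33 and 10.56 CPM in WT and 44.97, 28.04 and 21.46 CPM in Thbs2KO, and these ranges overlapped. Tek measured 4.698 to 9.729 CPM, less than Kdr in every Thbs2KO library. These endothelial genes were named with their values in view. Pericyte and smooth muscle markers (6 of 7) summed to 102.9 to 436.9 CPM in WT and 203.9 to 304.3 CPM in Thbs2KO. Replicates 1 and 2 of Thbs2KO resembled each other most (chi-square per degree of freedom over genes 3.72; any other pair 14.6 to 113). WT replicate 1 and Thbs2KO replicate 3 stood apart from the rest on the second principal component, which held 27.9% of the variance. In bulk RNA, fewer cells of a type and less transcript per cell cannot be told apart.

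No member passed the test for a change between the genotypes. By edgeR's quasi-likelihood test 0 of 33 members passed a Benjamini-Hochberg adjusted p of 0.05 over all genes, where 1.09% of all tested genes did (0.552% higher and 0.537% lower in Thbs2KO). DESeq2 also called 0, against 5.15% of the genes it tested, and limma-voom called 0, against 1.08%. On simulated data the edgeR test called 10 of 50 genes changed 1.5-fold and 40 of 50 changed 2-fold, so small changes can be missed. At an unadjusted p under 0.05 there were 4 members, against 13.3% of all genes: Eno2 and Ero1l were higher in Thbs2KO (5.72% of all genes), and Slc2a1 and Pfkfb4 lower (7.56%). Although no single member passed, the signs were uneven, with 28 of 33 log2 fold changes negative and a median of -0.221, where 50.9% of all tested genes were negative and their median was -0.004. Thbs2KO replicate 3 was the lowest library for 22 of the 33, against 25.8% of all tested genes. Members share the same 6 libraries, so their signs are not separate observations. The groups did not overlap for 7 of 33 members, against 19.7% of all tested genes. Of the 7, Eno2 and Ero1l were higher in Thbs2KO (9.37% of all tested genes) and Slc2a1, Pfkfb3, Pfkfb4, Gapdh and Eno1 lower (10.3%).

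**Figure D1:**
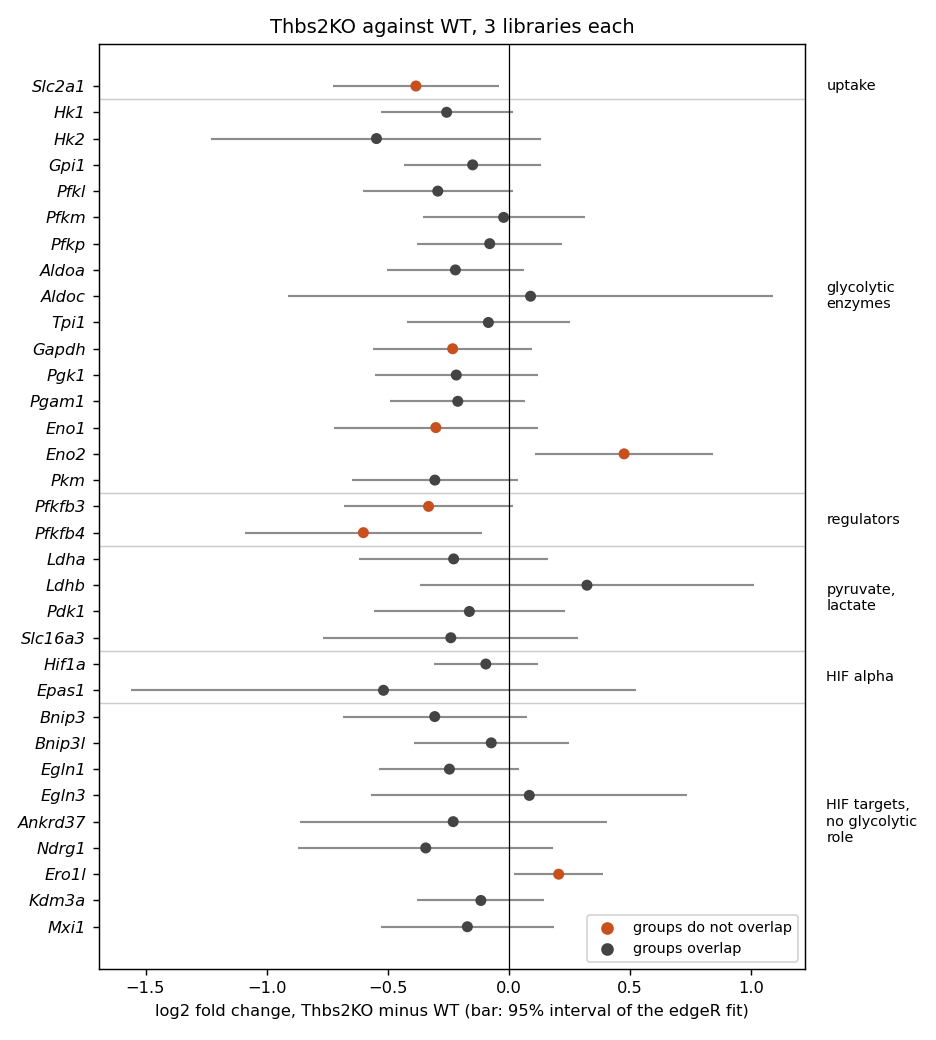
Log2 fold change of each of the 33 members (x axis, Thbs2KO minus WT, 3 libraries each) by gene and role (y axis), with bars for the 95% interval of the edgeR fit and orange points where the groups did not overlap. Most points lie left of 0, and only the intervals of Slc2a1, Pfkfb4, Eno2 and Ero1l leave 0 out.

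Slc2a1 (ENSMUSG00000028645.11, chromosome 4, 119108711 to 119137983, plus strand, mm10), the main glucose transporter of most cells, opens the pathway. It measured 245.5, 228.4 and 287.2 CPM in WT replicates 1, 2 and 3 and 206.1, 217.5 and 159.7 CPM in Thbs2KO replicates 1, 2 and 3. The groups were apart by a narrow gap, with Thbs2KO lower, and Thbs2KO replicate 3 was the lowest. The log2 fold change was -0.38 (SE 0.143, edgeR, Benjamini-Hochberg adjusted p = 0.32), with a 95% interval of -0.73 to -0.04. Without WT replicate 3 the log2 fold change was -0.29, and without Thbs2KO replicate 3 it was -0.26.

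In the preparatory phase, the hexokinases trap glucose by phosphorylation. Hk1, the isoform of most tissues, measured 198.2 ± 27.5 (WT) and 165.9 ± 8.90 CPM (Thbs2KO) (SD, n = 3 each). Hk2, the inducible isoform, measured 71.6, 114.5 and 122.7 CPM in WT and 76.8, 87.9 and 46.7 CPM in Thbs2KO. Thus WT replicate 1 lay among the Thbs2KO libraries, and Thbs2KO replicate 3 held the lowest level. The log2 fold change of Hk2 was -0.55 (SE 0.285, edgeR, Benjamini-Hochberg adjusted p = 0.488). In a fit of the 4 libraries that remain when WT replicate 1 and Thbs2KO replicate 3 are set aside, Hk2 passed at -0.53 (edgeR, Benjamini-Hochberg adjusted p = 0.00901), where 4 of 33 members and 11.2% of all genes were called, so the members' share was near the background. That fit takes its Thbs2KO spread from replicates 1 and 2 alone, which resembled each other most of all pairs. Over the other alternatives its adjusted p ran from 0.202 to 0.87. Gpi1, which isomerises glucose phosphate, measured 552.4 ± 70.7 and 497.9 ± 41.1 CPM. The phosphofructokinases commit sugar to glycolysis, and of their genes Pfkl, the liver-type subunit, measured 269.8 ± 28.5 and 220.1 ± 30.4 CPM. Pfkp, the platelet type, measured 125.7 ± 13.8 and 118.9 ± 15.1 CPM, and Pfkm, the muscle type, 32.5 ± 6.20 and 32.05 ± 1.11 CPM. Pfkm and Pfkp overlap Senp1 and Pitrm1 on the opposite strand, and this library kit does not mark strand, so reads of the shared parts cannot be told apart. The aldolases split the sugar. Aldoa measured 1253 ± 73.5 (WT) and 1075 ± 142.2 CPM (Thbs2KO). Its minor relative Aldoc measured 12.2, 4.03 and 4.95 CPM in WT and 8.37, 7.73 and 6.41 CPM in Thbs2KO. For Aldoc the WT libraries enclosed all Thbs2KO libraries, and in the same fit of 4 libraries the log2 fold change was 0.84 (edgeR, Benjamini-Hochberg adjusted p = 0.0258, against 0.963 with all libraries). Tpi1, which interconverts the triose phosphates, measured 685.3 ± 61.4 and 646.1 ± 106.6 CPM.

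In the payoff phase, Gapdh, the dehydrogenase often used as a reference transcript, measured 3082, 3194 and 3260 CPM in WT and 2890, 3035 and 2192 CPM in Thbs2KO. The groups did not overlap, but the WT minimum and the Thbs2KO maximum lay close together, and 1 library, Thbs2KO replicate 3, stood far below. The log2 fold change was -0.23 (SE 0.137, edgeR, Benjamini-Hochberg adjusted p = 0.552). Without Thbs2KO replicate 3 it was -0.10. Pgk1, which makes ATP, measured 955.6 ± 102 (WT) and 822 ± 125.1 CPM (Thbs2KO), and the mutase gene Pgam1 924.4 ± 70.9 and 798.5 ± 96.9 CPM. Eno1 (ENSMUSG00000063524.13, chromosome 4, 150236721 to 150248879, plus strand), the enolase of most tissues, measured 2092, 2023 and 2316 CPM in WT and 1946, 1980 and 1291 CPM in Thbs2KO. All Thbs2KO libraries were below all WT libraries, although replicates 1 and 2 were only just so. Its log2 fold change was -0.30 with all libraries and -0.13 without Thbs2KO replicate 3 (edgeR, Benjamini-Hochberg adjusted p = 0.546 and 0.606). Pkm, the pyruvate kinase that makes ATP at the last step, measured 2619 ± 241.3 and 2119 ± 332.6 CPM.

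Eno2 (ENSMUSG00000004267.16, chromosome 6, 124760053 to 124769673, minus strand), the enolase best known from neurons, had a positive log2 fold change. It measured 30.9, 23.5 and 20.8 CPM in WT and 33.1, 34.1 and 37.3 CPM in Thbs2KO, where every library exceeded every WT library. The log2 fold change was 0.48 (SE 0.154, edgeR, Benjamini-Hochberg adjusted p = 0.25), the smallest adjusted p of any member. It passed without WT replicate 1, the WT library nearest to Thbs2KO, at 0.65 (edgeR, Benjamini-Hochberg adjusted p = 0.0387, where 2.89% of all genes were called). It also passed in the fit of 4 libraries, at 0.60 (edgeR, Benjamini-Hochberg adjusted p = 0.00755). That fit leaves out WT replicate 1 as well and called 11.2% of all genes. In the other alternatives its adjusted p ran from 0.104 to 0.575.

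**Figure D2:**
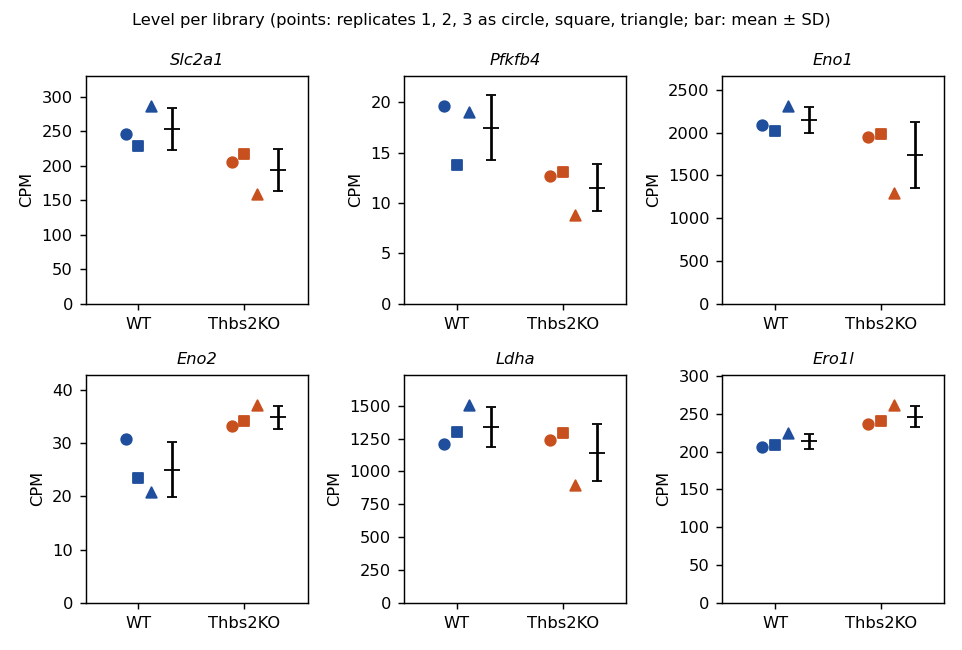
CPM (y axis, from 0) of Slc2a1, Pfkfb4, Eno1, Eno2, Ldha and Ero1l in WT and Thbs2KO libraries, with points for the 3 replicates and bars for mean ± SD. Thbs2KO replicate 3 (triangle) is the lowest library for Slc2a1, Pfkfb4, Eno1 and Ldha and the highest for Eno2 and Ero1l.

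The PFKFB enzymes set the level of a regulatory fructose bisphosphate, distinct from the one phosphofructokinase makes, that activates phosphofructokinase. Pfkfb3, whose product favours glycolysis, measured 55.5, 56.3 and 77.8 CPM in WT and 52.2, 51.5 and 46.8 CPM in Thbs2KO. WT replicates 1 and 2 lay just above the Thbs2KO libraries and WT replicate 3 well above. Pfkfb4 (ENSMUSG00000025648.18, chromosome 9, 108991778 to 109032228, plus strand), its relative, measured 19.7, 13.8 and 19.0 CPM in WT and 12.7, 13.1 and 8.85 CPM in Thbs2KO. The groups did not overlap, and this was the most negative log2 fold change of any member, at -0.60 (SE 0.204, edgeR, Benjamini-Hochberg adjusted p = 0.269). In the fit of 4 libraries it was -0.35, and in the other alternatives its adjusted p ran from 0.141 to 0.632.

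At the exit of the pathway, Ldha, the dehydrogenase subunit that favours lactate, measured 1208, 1301 and 1508 CPM in WT and 1240, 1293 and 895 CPM in Thbs2KO. Thbs2KO replicates 1 and 2 lay within the WT range and replicate 3 below it, with a log2 fold change of -0.23 (edgeR, Benjamini-Hochberg adjusted p = 0.648). Without Thbs2KO replicate 3 the log2 fold change of Ldha was -0.08. Ldhb, the subunit that favours pyruvate, measured 17.1, 12.9 and 8.63 CPM in WT and 13.1, 14.2 and 21.02 CPM in Thbs2KO, and here Thbs2KO replicate 3 was the highest library. Its log2 fold change was 0.32 with that library and 0.08 without it. Slc16a3, which exports lactate, measured 223.1, 225.8 and 313.4 CPM in WT and 227, 262.1 and 156.4 CPM in Thbs2KO. Its WT and Thbs2KO ranges overlapped, with replicate 3 the highest WT library and the lowest Thbs2KO library. Its log2 fold change was -0.24, and without Thbs2KO replicate 3 it was -0.055. Pdk1, whose product limits the oxidation of pyruvate in mitochondria, measured 62.9 ± 12.5 and 56.1 ± 7.08 CPM.

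Of the HIF alpha subunits, Hif1a measured 488.3, 424.2 and 509 CPM in WT and 451.8, 447.5 and 431.1 CPM in Thbs2KO, so all Thbs2KO libraries lay within the WT range. The 95% interval of its log2 fold change, -0.31 to 0.12, was the second narrowest of the members after that of Ero1l. Epas1, the alpha subunit prominent in endothelium and some stroma, measured 43.5, 12.8 and 31.0 CPM in WT and 27.0, 15.7 and 18.2 CPM in Thbs2KO. Its WT libraries spread so widely that the interval of the log2 fold change ran from -1.56 to 0.53. Per kilobase of annotated exon, Hif1a stood at 281.9 and Epas1 at 15.9 reads per kilobase (TPM scale, mean of 6 libraries).

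Among HIF targets without a glycolytic role, Ero1l (ENSMUSG00000021831.9, chromosome 14, 45283087 to 45318771, minus strand), an oxidase that forms disulfide bonds in the endoplasmic reticulum, was the one whose groups did not overlap. It measured 206.2, 209.1 and 224.8 CPM in WT and 235.7, 240.3 and 262 CPM in Thbs2KO. Each Thbs2KO library exceeded each WT library, with a log2 fold change of 0.21 (SE 0.0769, edgeR, Benjamini-Hochberg adjusted p = 0.321). The 95% interval of this difference was 0.02 to 0.39. Bnip3 and Bnip3l, receptors of mitophagy, measured 137.5 ± 27.0 and 126.2 ± 19.6 CPM in WT and 111.2 ± 12.3 and 120 ± 12.7 CPM in Thbs2KO. Egln1, the main prolyl hydroxylase that marks HIF alpha for degradation, measured 106.9, 93.5 and 124 CPM in WT and 90.2, 99.4 and 83.9 CPM in Thbs2KO. Egln3, an inducible member of that family, measured 5.73, 5.34 and 8.26 CPM in WT and 8.80, 6.85 and 4.84 CPM in Thbs2KO. Both groups of Egln3 covered nearly the same range. Ndrg1, a stress-responsive gene, measured 29.2, 48.4 and 46.9 CPM in WT and 36.9, 34.7 and 26.5 CPM in Thbs2KO. WT replicate 1 was the second lowest of the 6, and in the fit of 4 libraries the log2 fold change of -0.41 passed (edgeR, Benjamini-Hochberg adjusted p = 0.0111, against 0.599 with all libraries). That fit leaves out WT replicate 1, takes its Thbs2KO spread from the closely alike replicates 1 and 2, and called 11.2% of all genes. The histone demethylase gene Kdm3a measured 48.5 ± 6.79 and 44.8 ± 1.27 CPM, and Mxi1, a MYC antagonist, 21.6 ± 3.79 and 19.2 ± 1.90 CPM. Ankrd37 measured 3.01 ± 0.822 and 2.56 ± 0.415 CPM. It overlaps the more abundant Ufsp2 on the opposite strand, so its low counts are uncertain. Car9, under the minimum, measured 1.119, 0.394 and 0.293 CPM in WT and 0.473, 0.587 and 0.538 CPM in Thbs2KO, from 75 reads in all.

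**Figure D3:**
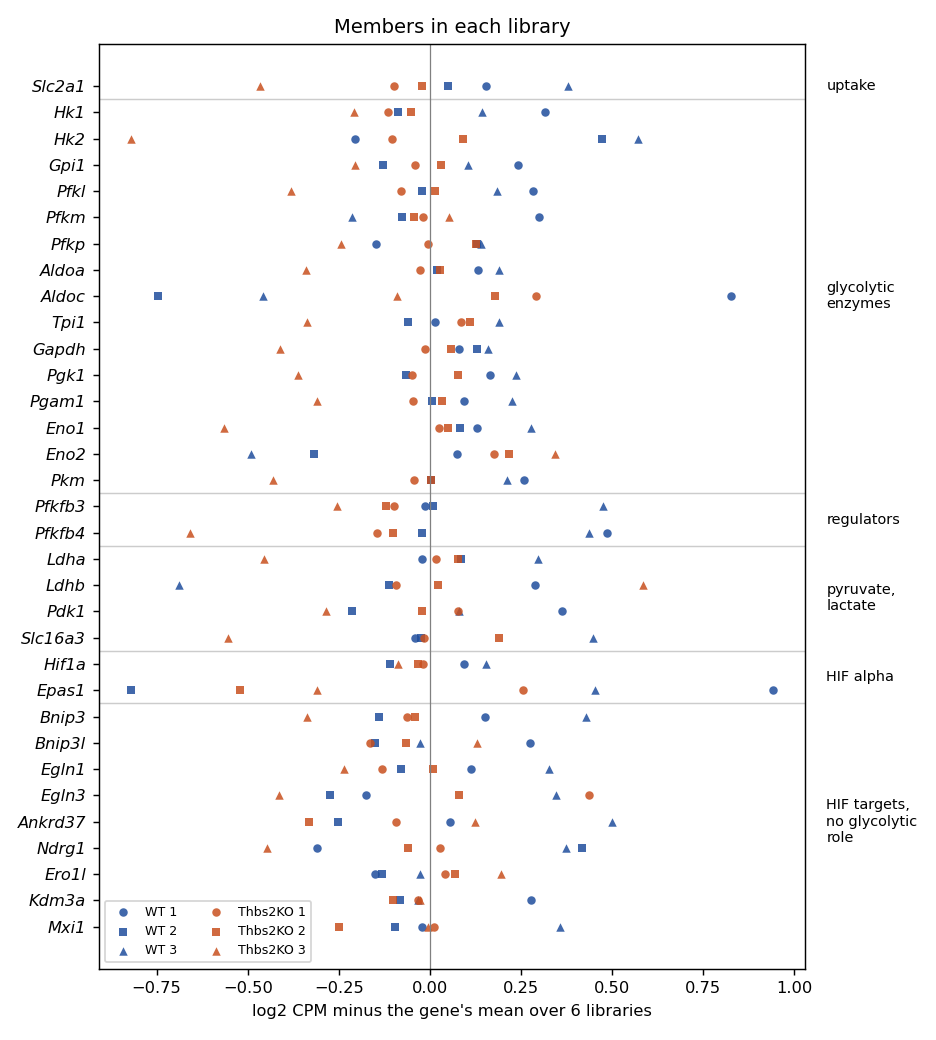
Each member (y axis, by role) in each of the 6 libraries, as log2 CPM minus the gene's mean over the libraries (x axis). Blue points are WT and orange points Thbs2KO, with circle, square and triangle for replicates 1, 2 and 3. The orange triangle, Thbs2KO replicate 3, is at the left end for 12 of the 15 glycolytic enzymes.

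The enzymes were compared with the HIF targets as lists. Among the 15 enzymes 13 were lower in Thbs2KO by value, at a median log2 fold change of -0.217. Among the 9 HIF targets 7 were, at a median of -0.172. The medians lay 0.046 apart. Averaged over its genes, as log2 CPM centred on each gene's mean, the enzyme list stood at 0.17, -0.04 and 0.10 (WT) and 0.00, 0.06 and -0.29 (Thbs2KO). The HIF target list stood at 0.02, -0.09 and 0.25 (WT) and 0.00, -0.08 and -0.11 (Thbs2KO). In both lists WT and Thbs2KO libraries overlapped. The enzymes minus the HIF targets gave 0.15, 0.04 and -0.15 (WT) and -0.00, 0.14 and -0.17 (Thbs2KO), a spread within each genotype wider than the gap between the medians.

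**Figure D4:**
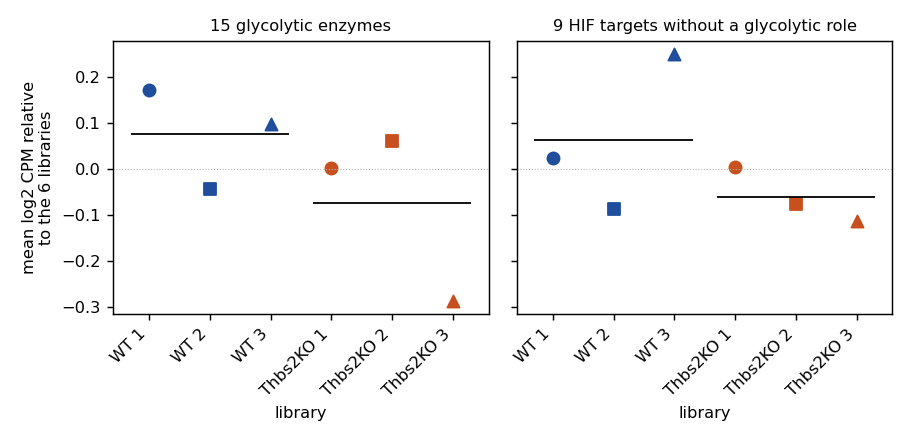
Mean log2 CPM, centred on each gene's mean over the libraries (y axis), of the 15 glycolytic enzymes and of the 9 HIF targets without a glycolytic role, 1 point per library (x axis) and a line at each genotype's mean. Thbs2KO replicate 3 lies at -0.29 for the enzymes, below the other 5 libraries, and at -0.11 for the HIF targets, close to Thbs2KO replicate 2 and WT replicate 2.

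Thbs2KO replicate 3 held the lowest enzyme levels. It was the lowest of the 6 libraries for 12 of 15 enzymes, as it was for 25.8% of all tested genes, and for 4 of 9 HIF targets. Against the mean of Thbs2KO replicates 1 and 2 it held a median of 78.9% for the enzymes, 103% for the HIF targets and 101% over all tested genes. The largest gaps among enzymes were those of Hk2, at 56.7%, and Eno1, at 65.8%. Outside the enzymes Egln3 stood at 61.9%, Slc16a3 at 64.0%, Pfkfb4 at 68.8%, Ldha at 70.6%, Ndrg1 at 74.05% and Slc2a1 at 75.4%, so low values in this library included HIF targets. In the same library Ldhb stood at 154.1%, Eno2 at 110.8%, Ero1l at 110.1% and Bnip3l at 118.5%. Thbs2KO replicate 3 also held the highest summed fibroblast markers, at 41080 CPM. Of these, Col1a2 stood at 14260 CPM against 8819 to 10020 CPM in the other libraries, and Col3a1 at 9069 CPM against 3637 to 6052 CPM. Dcn stood at 1004 CPM against 199.1 to 352.4 CPM, and Vim was lower, at 1501 CPM against 1995 to 2773 CPM. Col1a1, at 12060 CPM, lay within the range of the other libraries. These markers were picked with their values in view. Their part in the enzyme levels was not tested. Without Thbs2KO replicate 3 the median log2 fold change was -0.101 for the enzymes, with 11 of 15 negative, and -0.189 for the HIF targets, with 7 of 9 negative. The enzymes minus the HIF targets then turned from -0.046 to 0.088.

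Isozymes of a step were compared per kilobase of annotated exon, as shares of their family. With 3 libraries against 3, the two-sided exact permutation test allows no unadjusted p below 0.1, so none of the 9 shares compared could pass a threshold of 0.05, and the test cannot tell a difference from none. The adjusted values ran from 0.6 to 0.7 (exact permutation test, Benjamini-Hochberg). Eno2 was the one isozyme whose share did not overlap, at 1.66%, 1.31% and 1.02% of the enolase pair (WT) and 1.91%, 1.93% and 3.19% (Thbs2KO; exact permutation p = 0.1). Hk2 made up 31.3%, 49.0% and 46.8% of the hexokinase pair in WT and 39.7%, 41.9% and 29.9% in Thbs2KO, so WT replicate 1 and Thbs2KO replicate 3 had the lowest Hk2 shares. Pfkl held the largest phosphofructokinase share, at 61.2% to 69.3% in all 6 libraries. These shares depend on annotated exon lengths of 6675 bases for Pfkl, 13401 for Pfkp and 3340 for Pfkm. They are also uncertain because Pfkm and Pfkp overlap genes on the opposite strand. Ldhb was a minor part of the dehydrogenase pair, from 1.19% to 2.90% in WT and from 2.18% to 4.72% in Thbs2KO. Pfkfb4 held 30.2 ± 4.61% of its pair in WT and 26.1 ± 3.0% in Thbs2KO (SD, n = 3). Epas1 held 5.90 ± 2.76% and 4.59 ± 1.21% of the HIF alpha pair.

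**Figure D5:**
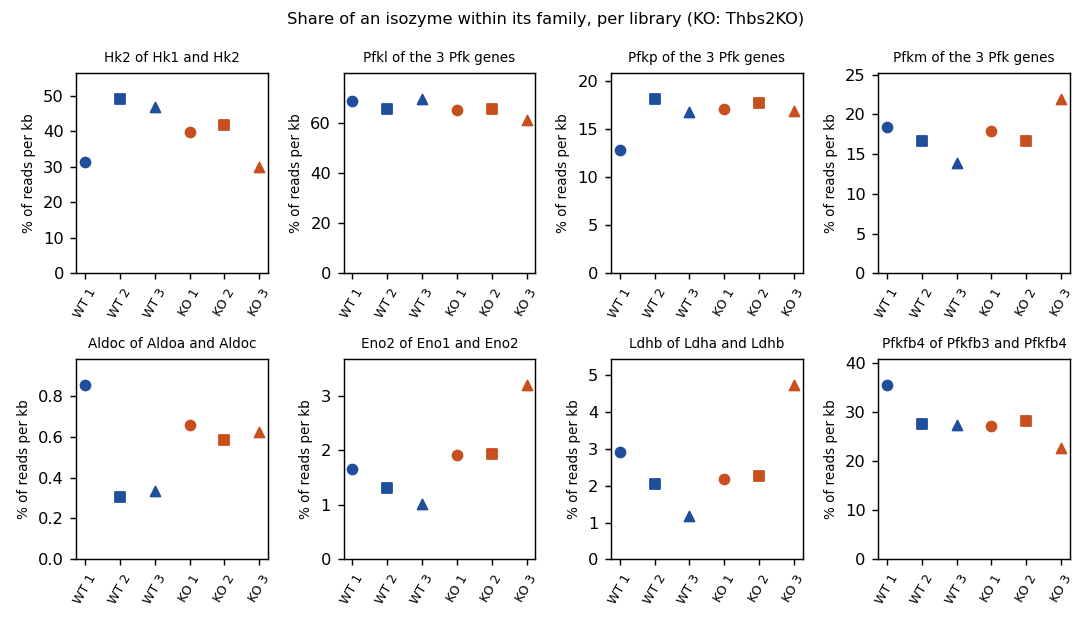
Share of an isozyme among the reads per kilobase of its family (y axis, percent, from 0) in each library (x axis, blue WT, orange Thbs2KO). For Eno2 all 3 Thbs2KO libraries exceed all 3 WT libraries, and for Hk2 the 2 lowest libraries are Thbs2KO replicate 3 and WT replicate 1.

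On that per-length scale the most abundant members included Aldoa of the preparatory phase, Ldha, and all payoff enzymes except Eno2, which stood at 23.1. Gapdh led at 2579 reads per kilobase on the TPM scale (mean of 6 libraries), followed by Pkm at 1715, Pgam1 at 1575, Aldoa at 1448, Pgk1 at 1435, Ldha at 1359 and Eno1 at 1307. From Pkm down to Eno1 each step between neighbours was smaller than the SD of either gene in Thbs2KO. The hexokinases were far lower, Hk1 at 77.2 and Hk2 at 52.5 on the same scale. Aldoc, at 8.09, was the least abundant enzyme. Exon length was the union of all annotated transcripts of a gene, so genes with long rare transcripts are understated.

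Many glycolytic genes have near-identical processed copies in the mouse genome, and RSEM divides shared reads by an estimate. Copies of at least 90% identity over at least 50% of their length were found for 13 listed genes, 181 of them for Gapdh and 15 for Ldha. Their reads were few: the copies held 4.05% to 4.50% of the sum of Pgk1 and its copies, 3.52% to 4.09% for Eno1, 1.58% to 1.85% for Gapdh and 1.2% to 1.67% for Pgam1. The copies with a mean of at least 1 CPM were Gm4735 and Eno1b for Eno1, Gm7336, Gm12070 and Gm5345 for Gapdh, Gm5537 for Pgk1, Pgam1-ps2 for Pgam1 and Gm6560 for Pkm. Gm4735, a processed pseudogene on chromosome 2, 99.62% identical to Eno1, measured 73.1, 63.0 and 70.1 CPM in WT and 59.5, 57.0 and 40.0 CPM in Thbs2KO, with no overlap. Gm12070, 99.9% identical to Gapdh, measured 2.54 to 3.57 CPM in 5 libraries and 0.0978 CPM in Thbs2KO replicate 3. With the counts of copies added to their gene, 0 members passed and the median of the enzymes was -0.214.

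The wider pathway lists also held 0 genes past the adjusted threshold by edgeR. Of 55 other genes of glucose, glycogen, pentose phosphate and pyruvate metabolism, 41 were tested, with a median log2 fold change of -0.038 and 25 negative. At an unadjusted p under 0.05, 2 of the 41 were higher and 3 lower, against 5.72% and 7.56% of all tested genes. DESeq2 called 1 higher and 1 lower, against 5.15% of all genes in both directions, so neither count stood above the background. The 2 genes called by DESeq2 were Slc16a1, a monocarboxylate transporter, and Gbe1, the glycogen branching enzyme. Slc16a1 measured 62.0, 66.4 and 70.3 CPM in WT and 97.4, 88.4 and 79.5 CPM in Thbs2KO, higher in every library (log2 fold change 0.42, edgeR, Benjamini-Hochberg adjusted p = 0.117). Gbe1 measured 16.7, 14.2 and 15.3 CPM in WT and 12.2, 9.98 and 8.46 CPM in Thbs2KO, lower in every library (log2 fold change -0.59, edgeR, Benjamini-Hochberg adjusted p = 0.161). Slc2a3, another glucose transporter, measured 18.3, 15.1 and 15.2 CPM in WT and 20.1, 22.8 and 29.7 CPM in Thbs2KO, the opposite direction to Slc2a1. Its log2 fold change was 0.58 (edgeR, Benjamini-Hochberg adjusted p = 0.199), and it was picked with these values in view.

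Of 70 other genes of the hypoxia response, 64 were tested, with a median log2 fold change of -0.148 and 43 negative. At an unadjusted p under 0.05, 4 of the 64 were higher and 12 lower, against 5.72% and 7.56% of all tested genes. DESeq2 called 3 higher and 4 lower, against 5.15% of all genes in both directions. The share lower by unadjusted p and the DESeq2 share were above those of all genes, and the share higher by unadjusted p was near it. The list was chosen with earlier results of these data known, and these shares were not tested. Plod1, a collagen lysyl hydroxylase, measured 244.1 ± 16.3 (WT) and 389.7 ± 58.6 CPM (Thbs2KO), and Loxl2, a collagen cross-linking oxidase, 1259 ± 172.9 and 828.8 ± 24.1 CPM. Their log2 fold changes were 0.67 and -0.60 (edgeR, Benjamini-Hochberg adjusted p = 0.0666 and 0.0712), and both groups were apart in all 6 libraries. The other DESeq2 calls, named after their values were seen, were Bhlhe41 and Zfp36l1, which were higher, and Cited2, Stc1 and Vegfa, which were lower. Vegfa, the angiogenic factor, measured 270.3, 364.3 and 363.1 CPM in WT and 238.4, 248.2 and 184.3 CPM in Thbs2KO (log2 fold change -0.57, edgeR, Benjamini-Hochberg adjusted p = 0.188). Cited2, which competes with HIF for a coactivator, measured 67.4 ± 8.47 and 38.6 ± 9.73 CPM. The genes without a call in either test included Arnt, the partner of the HIF alpha subunits, at 87.0 ± 7.88 and 88.0 ± 8.88 CPM, and Vhl, which directs their degradation, at 30.1 ± 2.16 and 32.1 ± 7.33 CPM, both chosen after their values were seen.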

How the data were processed

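RNA-seq was measured in 6 libraries, 3 WT and 3 Thbs2KO, made with a TruSeq kit per the labels' protocols; the version named there does not mark strand. The authors deposited expected counts, reads per gene as estimated by RSEM and not scaled. The submitters' processing notes name mm10 as the build and the tools RSEM, STAR 2.7.3a and Trimmomatic 0.39, with no RSEM version or annotation. In each library 3.80% to 3.88% of the expected counts were fractional and all were rounded. Genes passing filterByExpr (13590) were scaled by TMM and tested by genotype with edgeR 4.0.16 (quasi-likelihood, robust; R 4.3.3), adjusted by Benjamini-Hochberg over all of them, at a threshold of 0.05. Standard errors and 95% intervals were derived from its F statistic. List levels used log2 CPM with a prior count of 2. Alternatives used DESeq2 1.42.0, limma 3.58.1 (voom), other scalings and filters, a replicate block and left-out, summed or merged libraries and copies. The edgeR step was tested on simulated data with 50 genes changed at each fold. It called 10 of them at 1.5-fold, 40 at 2-fold, 50 at 4-fold and 47 at 8-fold, and 16 unchanged genes. Gene positions and exon lengths come from GENCODE M21 (GRCm38, the build of mm10). Copies were sought with BLAST+ 2.17.0 (same strand, longest transcript, at least 300 aligned bases). Promoters come from RefSeq. Figures were drawn with matplotlib 3.10.9. The members, lists and alternatives were chosen with earlier results of these data known. All members are named; from the other lists, genes that passed or else the 2 with the smallest p are named, and copies of at least 1 CPM; any other gene is said to be picked by its values.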

Additional observations from a re-analysis of the deposited data

How the results depend on the processing

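Under 17 alternatives, 0 members passed except without WT replicate 1 (1, Eno2) and without both WT replicate 1 and Thbs2KO replicate 3 (4: Hk2, Aldoc, Eno2 and Ndrg1, in a fit that called 11.2% of all genes and had only the closely alike Thbs2KO replicates 1 and 2). With 1 library left out the count of members ran from 0 to 1. The median of the enzymes stayed negative in all 17, from -0.291 to -0.101, and that of the HIF targets from -0.226 to -0.092, while their difference was positive without Thbs2KO replicate 3 (0.088), without WT replicate 1 (0.033) and without both WT replicate 1 and Thbs2KO replicate 3 (0.091). RLE and upper-quartile scaling changed the sign of 0 members, and each kept the median of all tested genes within 0.01 of 0. Over all genes the count was 148 and became 699 with DESeq2, 245 with no filter, 1519 without both WT replicate 1 and Thbs2KO replicate 3, 40 with Thbs2KO replicates 1 and 2 summed and 38 to 397 with 1 library left out. For the other glycolysis genes it was 0, then 2 with DESeq2, 6 without both libraries, and stayed 0 with 1 left out. For the other hypoxia genes it was 0, then 7 with DESeq2, 1 with no filter, 16 without both libraries and 0 to 4 with 1 left out. The causes were not tested. Same-numbered WT and Thbs2KO libraries deviated with correlations of -0.292, 0.171 and -0.331. With 3 libraries per group these values cannot tell whether the numbers pair them. With the replicate block 30 genes and 0 members passed, and Thbs2 had a log2 fold change of -2.862 (edgeR, Benjamini-Hochberg adjusted p = 0.0784). Low counts limit Car9, Ankrd37, Egln3 and Aldoc.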
